A study of Mus musculus with 32 samples.

Results

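The cytosolic ribosomal proteins are the protein components of the ribosomes that translate nuclear-encoded mRNA in the cytoplasm. Their genes were taken by symbol: Rpl or Rps followed by a digit, plus Rplp0, Rplp1, Rplp2 and Rpsa, leaving out the Rps6k kinases, Rps19bp1 and symbols with -ps, which mark pseudogenes. The rule gave 85 of the 13175 genes in the table, 34 of the small subunit and 51 of the large subunit. Among them, 8 are paralogs of another member (Rpl7l1, Rpl10l, Rpl22l1, Rpl36al, Rpl39l, Rps4l, Rps27l and Rps27rt). Their symbols extend that of the partner, except that Rps4l was paired with Rps4x. GENCODE M21 annotates 84 of the 85 as protein coding and Rps4l as a transcribed processed pseudogene; Rps4l was kept because its symbol met the rule. All 85 were above 0 in each of the 8 GV oocytes, and 50 were above 0 in each of the 24 MII oocytes.

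A cytosolic ribosome holds a small subunit, which reads the mRNA, and a large subunit, which joins amino acids. In most cells the genes of both are expressed together at high levels, and many of their mRNAs start with a run of pyrimidines, the 5′ terminal oligopyrimidine (TOP) tract, through which mTOR signalling sets how much they are translated. A growing mouse oocyte transcribes and stores ribosomal protein mRNA. Transcription is silent by the end of growth, and during meiotic maturation part of the stored mRNA is deadenylated or degraded.

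The study sequenced 32 single wild-type (WT) mouse oocytes, each as 1 library made with a SMART-Seq v4 kit, which primes cDNA on poly(A) tails. Preantral follicles, either vitrified (cooled to a glass-like state for storage) or kept fresh, were grown in culture by encapsulated in vitro follicle growth. Metaphase II (MII) oocytes are arrested in the second meiotic division and ready for fertilisation. They were collected on day 9, once hCG, the ovulation trigger, had been given: 12 from vitrified and 12 from fresh follicles. Germinal vesicle (GV) oocytes, still in prophase of the first division, were collected on day 8, 4 from vitrified and 4 from fresh follicles. The labels call the oocytes biological replicates without naming animals, so p-values measure the spread between oocytes only.

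Gene counts totalled 5300208 to 12206512 in MII oocytes from vitrified follicles, 6196976 to 10142902 in MII oocytes from fresh follicles, 11159677 to 16554201 in vitrified GV oocytes and 10357543 to 17687247 in fresh GV oocytes. Library names numbered the MII oocytes 2 to 25 and the GV oocytes 81 to 85, and 41 of the 85 genes had values that were not whole in some MII oocytes, while every GV value was whole. Stage and the making of the libraries and counts therefore cannot be told apart. All 16 oocyte markers examined (zona pellucida genes, Gdf9, Bmp15 and others) were detected in each group and summed to 15900 CPM (counts scaled to the same library total) or more in every oocyte. Of 24 cumulus and granulosa markers, 21 were in the table. They summed to 70.5 to 620 CPM in vitrified MII oocytes, 67.6 to 3143 CPM in fresh MII oocytes, 83.3 to 155 CPM in vitrified GV oocytes and 72.9 to 145 CPM in fresh GV oocytes. Cyp19a1 alone had medians of 79.3 CPM in vitrified and 70.6 CPM in fresh MII oocytes, where the median sums were 124 and 104 CPM. Outside the highest MII oocytes the sum at that stage is thus largely that 1 gene. In GV oocytes Cyp19a1 had medians of 38.0 CPM in vitrified and 32.4 CPM in fresh follicles, where the median sums were 106 and 101 CPM. Fresh MII replicate 11 stood apart at 3143 CPM, and Ptx3, a protein of the expanding cumulus matrix, reached 250 CPM there and was at 0 in the other 11 fresh MII oocytes and in all 8 GV oocytes.

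TOP tracts were looked for at the annotated starts, because they are the shared feature of this gene family. RefSeq gave start windows (GRCm38.p6) for 64 of the 85 genes, 75 windows in all. The windows below, chosen among genes with a tract, show 40 bases before and 20 bases from the annotated start, with the tract in capitals, for genes at both ends of the MII-to-GV range and for Rps27 with its paralogs. Rpl38 (chr11:114668540-114668599, plus strand) and Rpl35 (chr2:39005112-39005171, minus strand) had some of the lowest MII values relative to GV. Rpl15 (chr14:18270967-18271026, minus strand) and Rpl13a (chr7:45128726-45128785, minus strand) differed least between stages of those shown, with Rps27l (chr9:66946046-66946105, plus strand). Rps27 lies at chr3:90213629-90213688 on the minus strand and Rps27rt at chr9:114982720-114982779 on the minus strand.
Rpl38: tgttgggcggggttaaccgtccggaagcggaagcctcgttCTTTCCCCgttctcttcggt
Rpl35: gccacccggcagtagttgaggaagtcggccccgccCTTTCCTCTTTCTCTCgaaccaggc
Rpl15: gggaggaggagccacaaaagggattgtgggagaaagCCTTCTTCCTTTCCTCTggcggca
Rpl13a: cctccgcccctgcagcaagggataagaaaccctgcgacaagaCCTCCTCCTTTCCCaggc
Rps27: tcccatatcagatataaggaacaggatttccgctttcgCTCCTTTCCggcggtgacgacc
Rps27l: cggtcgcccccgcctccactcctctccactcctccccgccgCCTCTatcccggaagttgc
Rps27rt: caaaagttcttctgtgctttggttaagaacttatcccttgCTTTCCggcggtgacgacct
The tract is long in Rpl15 and Rpl13a as well as in Rpl35, at opposite ends of the range. Rps27 and Rps27rt share a run of 19 letters, which lies at and after the start in both windows, against 5 for Rps27 and Rps27l.

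A tract was scored as a C within 5 bases of the annotated start on the transcribed strand followed by at least 4 C or T. It was present in 30 of the 64 genes with a window (46.9%), against 21.2% of all 27025 genes with one, and in 32 of 75 windows (42.7%), against 18.3% of all 32851. CCGGAAG, the core of an ETS factor site, searched on both strands from 250 bases before to 50 from the start, was present in 26 of the 64 genes (40.6%) and in 9.93% of all genes. On the other strand CCGGAAG reads CTTCCGG, which opens with letters that meet the definition of a tract, so a site at the start can count as both.

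Did ribosomal protein mRNA differ between MII and GV oocytes? It was far lower in MII oocytes after either treatment. The 85 genes summed to 534 CPM at the lowest, 918 CPM at the median and 1597 CPM at the highest in vitrified MII oocytes, and to 521, 1136 and 5419 CPM in fresh MII oocytes. In the 4 vitrified GV oocytes they summed to 15150, 15570, 21390 and 18890 CPM, and in the 4 fresh GV oocytes to 22460, 22190, 24620 and 22260 CPM. The highest MII oocyte lay below the lowest GV oocyte. Mean sums were 18.5 times higher in GV than in MII oocytes of vitrified follicles (960.7 ± 358 CPM in MII, SD, n = 12; 17750 ± 2947 CPM in GV, SD, n = 4) and 15.2 times higher in those of fresh follicles (1504 ± 1335 CPM in MII, SD, n = 12; 22880 ± 1164 CPM in GV, SD, n = 4). As a share of all counts, the genes took 0.0541% to 0.164% in vitrified and 0.0537% to 0.569% in fresh MII oocytes, against 1.52% to 2.98% in vitrified and 2.58% to 3.14% in fresh GV oocytes. Less mRNA in the oocyte and shorter poly(A) tails on the same mRNA cannot be told apart in a poly(A)-primed library.

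**Figure D1:**
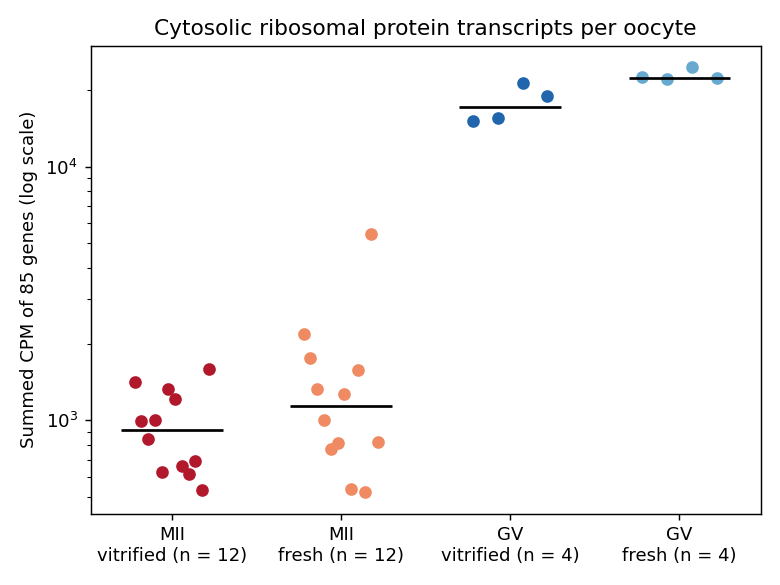
Summed CPM of the 85 cytosolic ribosomal protein genes (log axis) in each oocyte, by stage and treatment; each point is 1 oocyte and the line is the group median. All 24 MII oocytes lie at 5419 CPM or below and all 8 GV oocytes at 15150 CPM or above.

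Gene by gene, 83 of 85 were lower in MII than in GV oocytes of vitrified follicles and none was higher (edgeR quasi-likelihood test, Benjamini-Hochberg adjusted p under 0.05), where 33.7% of all 11470 genes tested were lower and 23.3% higher. In fresh follicles 78 of 85 were lower and none higher, where 29.8% of all genes were lower and 22.8% higher. Each of the 78 was also among the 83. Of the 84 protein coding genes, 82 and 78 were lower. The median log2 fold change was −5.03 in vitrified and −4.61 in fresh follicles, beside −0.35 and −0.23 over all genes tested. Between the quartiles the genes ranged from −6.61 to −3.99 in vitrified and from −5.95 to −3.16 in fresh follicles. The 44 genes with whole values in every MII oocyte had medians of −5.68 in vitrified and −5.11 in fresh follicles. The 41 with values that were not whole had medians of −4.59 and −4.08. The part of counting in that difference was not tested. In 76 of 85 genes every vitrified MII oocyte was below every vitrified GV oocyte, as in 20.7% of all genes, and in 68 of 85 every fresh MII oocyte was below every fresh GV oocyte, as in 18.5% of all genes. Of the 17 that overlapped in fresh follicles, 11 did so through replicate 11 alone, the oocyte with the highest cumulus marker sum. Without that oocyte 83 of 85 genes were lower in fresh MII oocytes and the median was −5.44; the part of cumulus RNA in its values was not tested further. Among MII oocytes with library numbers under 20 (7 per treatment), 83 genes were lower in vitrified and 83 in fresh follicles, with medians of −5.00 and −5.03, and with numbers of 20 and over (5 per treatment) 79 and 66, with medians of −5.15 and −3.89.

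**Figure D2:**
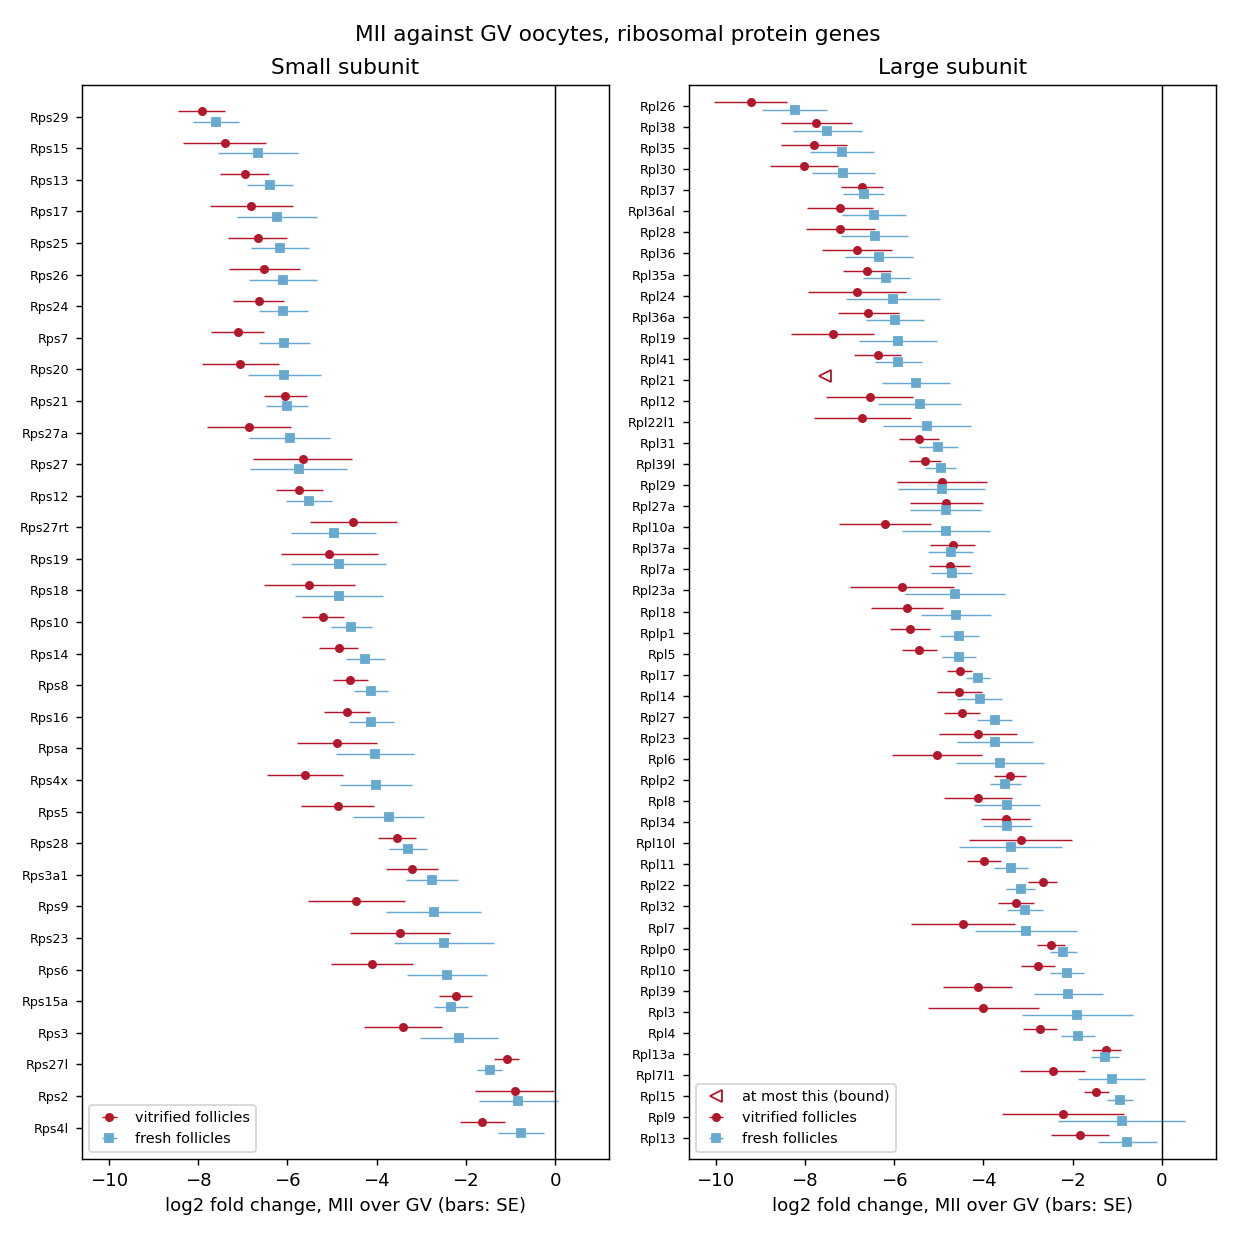
Log2 fold change of MII over GV oocytes for small subunit genes (left) and large subunit genes (right), in vitrified (circles) and fresh (squares) follicles, with bars of 1 SE from the edgeR fit; the open triangle is the bound for Rpl21, which was at 0 in all 12 vitrified MII oocytes. Every point drawn lies below 0, from Rps4l, Rps2 and Rpl13 at the bottom to Rps29 and Rpl26 at the top.

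Genes of both subunits were lower. Of 34 small subunit genes, 33 were lower in MII oocytes of vitrified follicles and 31 in those of fresh follicles, with medians of −5.13 and −4.70. Of 51 large subunit genes, 50 and 47 were lower, with medians of −4.92 and −4.61.

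Among small subunit genes, Rps29, a zinc-binding protein of the subunit's head, differed most. It had 0.405 CPM at the lowest, 1.29 at the median and 4.48 at the highest in vitrified MII oocytes and 0.268, 3.31 and 13.7 CPM in fresh MII oocytes. In GV oocytes it had 415, 430, 447 and 478 CPM after vitrification and 789, 869, 790 and 548 CPM in fresh follicles. No MII oocyte came near any GV oocyte. The log2 fold change was −7.91 ± 0.53 in vitrified (SE, adjusted p = 1.37e-14) and −7.60 ± 0.51 in fresh follicles (SE, adjusted p = 2.32e-14). Rps13 (−6.95 vitrified, −6.39 fresh), Rps21 (−6.04, −6.00), Rps20 (−7.05, −6.06) and Rps27a (−6.85, −5.95) also fell, the last encoding ubiquitin fused to a ribosomal protein.

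Other small subunit proteins with known roles were lower by less. Rps6, the substrate of S6 kinase, had a median of 2.65 CPM in vitrified and 1.72 CPM in fresh MII oocytes, and 62.6 to 112 CPM in vitrified and 42.8 to 98.5 CPM in fresh GV oocytes. Its log2 fold change was −4.10 ± 0.91 in vitrified (SE, adjusted p = 0.000233) and −2.43 ± 0.90 in fresh follicles (SE, adjusted p = 0.0229), where MII replicate 11 reached 119 CPM. Rps19, mutated in human Diamond-Blackfan anaemia, was lower, at −5.06 in vitrified and −4.85 in fresh follicles on the log2 scale, Rpsa, also known as the laminin receptor, at −4.88 and −4.04, and Rps3, at the mRNA entry site, at −3.40 and −2.15.

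In the large subunit, Rpl26 was nearly lost. It was at 0 in 9 of 12 vitrified and 7 of 12 fresh MII oocytes, with 0.590 and 1.54 CPM at the highest. Vitrified GV oocytes had 124, 25.6, 35.9 and 34.0 CPM and fresh GV oocytes 212, 34.8, 51.3 and 35.9 CPM, so replicate 1 of each GV group stood above the other 3. The log2 fold change was −9.21 ± 0.82 in vitrified (SE, adjusted p = 1.08e-11) and −8.23 ± 0.74 in fresh follicles (SE, adjusted p = 1.59e-11). Rpl21 was at 0 in all 12 vitrified MII oocytes and at 6.64 to 8.75 CPM in vitrified GV oocytes, at least 189-fold lower against a floor of 3 counts over the 12 oocytes, and with Rpl21 at that bound the median over the family was still −5.03. In fresh follicles Rpl21 had a median of 0.142 CPM in MII oocytes and 6.32 to 14.5 CPM in GV oocytes (log2 fold change −5.50 ± 0.76, SE, adjusted p = 1.35e-06).

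Rpl38, whose loss alters the skeleton in Tail short mice, had a median of 0.192 CPM in vitrified and 0.217 CPM in fresh MII oocytes, against 81.5 to 105 CPM in vitrified and 121 to 162 CPM in fresh GV oocytes. Its log2 fold change was −7.74 ± 0.80 in vitrified (SE, adjusted p = 3.41e-10) and −7.50 ± 0.77 in fresh follicles (SE, adjusted p = 3.79e-10). Rpl35, which sits at the exit of the peptide tunnel, was lower, at −7.79 and −7.16, Rpl30 at −8.01 and −7.13, and Rpl24, mutated in Belly spot and tail mice, at −6.83 and −6.03. Across the 85 genes the log2 fold change rose with transcript length (Spearman's rho 0.28 in vitrified and 0.35 in fresh follicles). It declined with the GV level per kilobase (−0.42 and −0.45). Both are descriptions over genes that share the same libraries. The GV level is itself part of the fold change, so the decline cannot show whether genes abundant in GV oocytes fell more.

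Rpl5 and Rpl11, which bind 5S rRNA and can hold Mdm2, the ligase of p53, fell by different amounts. Rpl5 had a median of 22.95 CPM in vitrified and 37.5 CPM in fresh MII oocytes, against 1813, 846, 489 and 942 CPM in vitrified and 850, 608, 1564 and 682 CPM in fresh GV oocytes (log2 fold change −5.44 ± 0.39 and −4.54 ± 0.38, SE). Rpl11 had a median of 10.5 CPM in vitrified and 18.6 CPM in fresh MII oocytes, and 157 to 217 CPM in vitrified and 187 to 320 CPM in fresh GV oocytes (−3.99 ± 0.39 and −3.38 ± 0.38, SE). Replicate 1 of the vitrified and replicate 3 of the fresh GV oocytes were the highest in Rpl5. Rpl5 exons overlap Fam69a on the other strand, 1 of 19 genes of the family whose exons overlap another gene, and since the sources used here do not say whether counting used strand, reads may be shared within such pairs.

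The 3 stalk proteins, which recruit elongation factors, were unequal. Rplp0, the base of the stalk, had 67.6 CPM at the lowest, 82.98 at the median and 135 at the highest in vitrified MII oocytes and 45.1, 76.0 and 286 CPM in fresh MII oocytes, against 362 to 614 CPM in vitrified and 357 to 698 CPM in fresh GV oocytes. Its log2 fold change was −2.49 ± 0.30 in vitrified (SE, adjusted p = 1.25e-08) and −2.21 ± 0.31 in fresh follicles (SE, adjusted p = 1.65e-07). Rplp1 and Rplp2, which form the dimers bound to that base, were lower, at −5.64 and −3.40 in vitrified and at −4.54 and −3.51 in fresh follicles. Rpl10, which is added late and helps join the subunits, stood with Rplp0 (−2.78 and −2.13).

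A few genes did not pass. In vitrified follicles these were Rpl9 (log2 fold change −2.22 ± 1.37, SE, adjusted p = 0.167) and Rps2 (−0.90 ± 0.89, SE, adjusted p = 0.400). In fresh follicles Rpl9 and Rps2 were joined by Rpl3, Rpl7l1, Rpl13, Rps4l and Rps23, with values from −2.49 for Rps23 to −0.76 for Rps4l. Rps2 overlapped most: its highest vitrified MII oocyte had 18.9 CPM and its lowest vitrified GV oocyte 7.25 CPM, with 6 of 12 MII oocytes at or above that GV value. Rps2 has 11 and Rpl9 has 9 pseudogenes named after it in GENCODE M21, Rpl13 has 6, Rpl3 and Rps23 2 each, and Rpl7l1 and Rps4l 1 each. Of the genes that passed, Rpl31 and Rps12 have 24 each, and 61 of the 85 genes have at least 1. Reads may have been split between copies in the authors' counting, for genes that passed as well, and the part of this was not tested. Values that were not whole occurred in 21 MII oocytes for Rps2 and 0 for Rpl9.

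How did levels rank within each stage? Per kilobase of the principal transcript, the median gene stood at 6.32 CPM per kilobase in MII and 207 CPM per kilobase in GV oocytes. Levels per kilobase are means over all oocytes of a stage. Those of MII oocytes include fresh replicate 11, which held the highest fresh MII value for 72 of the 85 genes. The 8 highest genes held 56.0% of the summed level per kilobase in MII and 34.5% in GV oocytes. In GV oocytes these included Rpl41, a very short basic peptide (1661 CPM per kilobase), Rps29 (1528), Rps27l (1050), Rps13 (897), Rps14 (786) and Rpl19 (767). In MII oocytes only Rps27l of the 8 highest in GV oocytes was still among the highest 8, at 430 CPM per kilobase, followed by Rplp0 at 71.6, Rpl32 at 63.1 and Rpl10 at 60.0 CPM per kilobase. The 2 orders were related (Spearman's rho 0.48 over 85 genes, a description). Principal transcripts of unusual length, 5179 bases for Rps15a and 3706 for Rps20, lower the per-kilobase level of those genes.

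**Figure D3:**
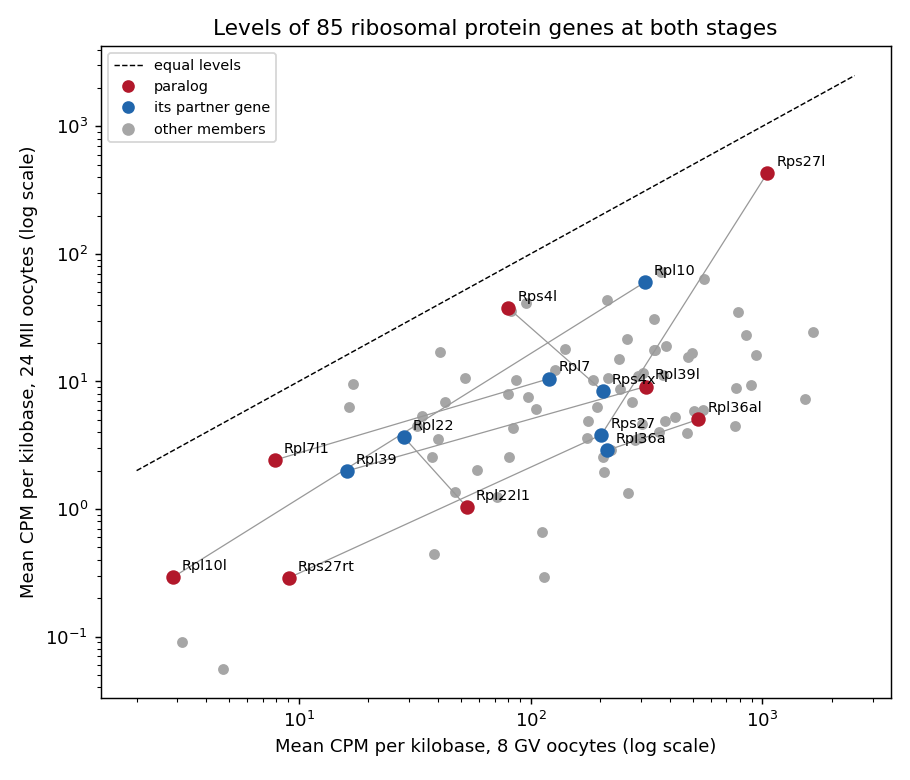
Mean CPM per kilobase over 24 MII oocytes against the mean over 8 GV oocytes for the 85 genes (both axes log), with paralogs and their partner genes joined by lines and the dashed line marking equal levels. Every gene lies below the line, and Rps27l lies far above the other genes in MII oocytes at 430 CPM per kilobase.

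Paralogs departed from their partners in both directions. Rps27l, which p53 induces in human cells, had 113 CPM at the lowest, 201 at the median and 374 at the highest in vitrified MII oocytes and 110, 222 and 371 CPM in fresh MII oocytes. In GV oocytes it had 566, 392, 459 and 388 CPM after vitrification and 616, 435, 925 and 411 CPM in fresh follicles. The MII and GV oocytes of each treatment did not overlap, but the log2 fold change was only −1.09 ± 0.28 in vitrified (SE, adjusted p = 0.00144) and −1.47 ± 0.28 in fresh follicles (SE, adjusted p = 3.78e-05). Its partner Rps27 had a median of 0.187 CPM in vitrified and 0 CPM in fresh MII oocytes, against 21.4 to 62.2 CPM in vitrified and 62.6 to 112 CPM in fresh GV oocytes (−5.66 ± 1.10 and −5.74 ± 1.09, SE). Per kilobase, Rps27l stood 113 times above Rps27 in MII and 5.20 times above it in GV oocytes. The MII ratio uses means, and fresh MII replicate 11 held 16.6 CPM of Rps27. Rps27l alone made up 11.8% to 29.1% of the summed CPM of the family in vitrified MII and 4.36% to 28.1% in fresh MII oocytes, and 2.05% to 3.74% in vitrified and 1.85% to 3.76% in fresh GV oocytes. Rps27rt, the other copy, was at 0 in 8 of 12 vitrified and 6 of 12 fresh MII oocytes.

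The order of Rps4l, annotated as a processed pseudogene, and Rps4x turned round with stage. Rps4l had medians of 19.9 CPM in vitrified and 25.6 CPM in fresh MII oocytes, and 42.9 to 119 CPM in vitrified and 58.7 to 125 CPM in fresh GV oocytes. Rps4x, the X-linked form, had medians of 2.64 and 2.88 CPM in vitrified and fresh MII oocytes and 184 to 239 and 157 to 273 CPM in vitrified and fresh GV oocytes. Per kilobase, Rps4l was 4.49 times Rps4x in MII and 0.390 times in GV oocytes. The MII ratio uses means, and fresh MII replicate 11 held 97.8 CPM of Rps4x and 15.4 CPM of Rps4l. The log2 fold change of Rps4l was −1.63 ± 0.50 in vitrified (SE, adjusted p = 0.00573) and −0.76 ± 0.51 in fresh follicles (SE, adjusted p = 0.219), and that of Rps4x −5.60 ± 0.85 and −4.01 ± 0.81 (SE). In vitrified follicles Rps4l no longer passed with the replicate number as a block (−1.20). Values that were not whole occurred in 5 MII oocytes for Rps4l and 0 for Rps4x, and in 13 for Rps27l and 0 for Rps27. How counting bears on the order within either pair was not tested.

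Rpl39l, a paralog best known from male germ cells in mouse, was the main form at both stages. It stood 4.59 times above Rpl39 per kilobase in MII and 19.4 times in GV oocytes, and fell by 5.31 in vitrified and by 4.96 in fresh follicles on the log2 scale. Rpl36al was above Rpl36a at both stages (1.75 times in MII, 2.48 times in GV oocytes). Rpl22l1, which can stand in for Rpl22 in mouse cells, was below Rpl22 in MII (0.282 times) and above it in GV oocytes (1.87 times); Rpl22 was lower, at −2.67 and −3.16 and Rpl22l1 at −6.71 and −5.27 in vitrified and fresh follicles. Rpl7l1 stood at 0.230 times Rpl7 in MII and 0.0654 times in GV oocytes. These ratios use means over all oocytes of a stage, and fresh MII replicate 11 weighs on those in MII oocytes. It held 193 CPM of Rpl7 and 9.37 CPM of Rpl22l1, against fresh MII medians of 1.45 and 0.137 CPM. The ratios were not taken again without it. Rpl10l, a form known from mouse testis, was under 0.01 times Rpl10 at either stage.

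Did genes with a TOP tract differ from the others? In vitrified follicles the 30 genes with a tract had a median log2 fold change of −5.01 and the 34 with a window and no tract −4.95, with 29 and 33 lower in MII oocytes. In fresh follicles the medians were −4.77 and −4.08, with 28 and 31 lower. Outside the family, 2153 genes with a tract had medians of −0.35 and −0.21 and 7072 genes without one −0.29 and −0.19, in vitrified and fresh follicles. These are descriptions, and no difference between tract classes was tested. The score used annotated starts alone, so a gene scored without a tract may still have one if its mRNA starts elsewhere.

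Some ribosome components are listed under other names. Fau, a ubiquitin-like protein fused to a small subunit protein, was lower, at −5.39 in vitrified and −5.12 in fresh follicles. Rack1, the scaffold on the head of the small subunit, had 124 to 336 CPM in vitrified and 127 to 360 CPM in fresh MII oocytes, against 133 to 178 CPM in vitrified and 99.3 to 192 CPM in fresh GV oocytes. Its log2 fold change of 0.63 (adjusted p = 0.0188) and 0.59 (adjusted p = 0.0303) in vitrified and fresh follicles was 0.13 and 0.16 with library size alone as the scale, and no longer passed.

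The neighbouring lists moved less uniformly. Over all genes tested, 33.7% were lower and 23.3% higher in vitrified and 29.8% lower and 22.8% higher in fresh MII oocytes. Of 78 mitochondrial ribosomal proteins, which make up the separate ribosome of that organelle, 63 were lower and 5 higher in vitrified and 62 lower and 3 higher in fresh MII oocytes, with medians of −3.28 and −3.21. Of 13 elongation and release factors, 9 were lower and 2 higher in vitrified and 6 lower and 2 higher in fresh MII oocytes. Eef1d, which reloads the elongation factor with GTP, had 5.17 to 18.5 CPM in vitrified and 3.88 to 41.8 CPM in fresh MII oocytes, against 255 to 644 CPM in vitrified and 454 to 815 CPM in fresh GV oocytes (log2 fold change −5.78 and −5.74). Eif5a, needed at stalling sequences, rose by 2.07 and 2.01. Of 90 ribosome biogenesis factors tested, 49 were lower and 14 higher in vitrified and 43 lower and 12 higher in fresh MII oocytes, with medians of −1.07 and −0.92. Fcf1, which acts in early cleavage of pre-rRNA, was lower, at −8.51 and −7.70, and Eif6, which keeps the large subunit from joining early, at −3.86 and −3.78. Of 27 genes of mTOR and TOP mRNA control, 6 were lower and 10 higher in vitrified and 3 lower and 10 higher in fresh MII oocytes, where 23.3% and 22.8% of all genes were higher. Rictor, of mTOR complex 2, rose by 3.38 and 3.40, and Rps6kb1, the S6 kinase, by 1.66 and 1.39.

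Did vitrification of the follicle go with a change in GV oocytes? The summed CPM was lower in all 4 vitrified than in all 4 fresh GV oocytes, with a mean in fresh oocytes 1.29 times that in vitrified ones. As a share of all counts, without TMM scaling, the groups overlapped (1.52% to 2.98% in vitrified, 2.58% to 3.14% in fresh GV oocytes). No gene of the family passed with edgeR (0 of 85), as none of the 10831 genes tested did (0.0%), nor did any with DESeq2 or limma-voom. The estimates were below 0 for 73 of 85 genes, with a median of −0.42 beside 0.00 over all genes. At an unadjusted p under 0.05, 6 genes were lower and none higher, where 1.01% of all genes were lower: Rps29, Rps13, Rpl36a, Rpl38, Rps26 and Rps27.

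Rps29, with the values given above, differed at −0.75 ± 0.26 on the log2 scale (SE; p = 0.0143 before adjustment). Rps13 had 295, 434, 360 and 487 CPM in vitrified and 702, 541, 849 and 559 CPM in fresh GV oocytes (−0.74 ± 0.28, SE, unadjusted p = 0.0212). Rpl36a had 50.5, 76.8, 90.3 and 94.5 CPM in vitrified and 128, 132, 136 and 118 CPM in fresh GV oocytes (−0.71 ± 0.29, SE, unadjusted p = 0.0286). In each of these genes the groups did not overlap, as in 8 of 85 genes of the family and 1.36% of all genes tested. Rpl39 (0.71 ± 0.65), Rpl4 (0.42 ± 0.38), Rpl7l1 (0.31 ± 0.44) and Rpl15 (0.26 ± 0.44) had the highest estimates, each with an SE (log2 scale) about as large. The 4 vitrified GV oocytes were also unequal among themselves: replicates 1 and 2 summed to 15150 and 15570 CPM and replicates 3 and 4 to 21390 and 18890 CPM. Leaving out 1 GV oocyte at a time gave medians from −0.59 to −0.31. The number of genes with an unadjusted p under 0.05 then ran from 1 (without fresh replicate 1) over 2 (without vitrified replicate 2) and 3 (without fresh replicate 2) to 9 (without fresh replicate 4) and 19 (without vitrified replicate 3). Cumulus marker sums overlapped between the 2 groups (83.3 to 155 CPM in vitrified, 72.9 to 145 CPM in fresh).

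**Figure D4:**
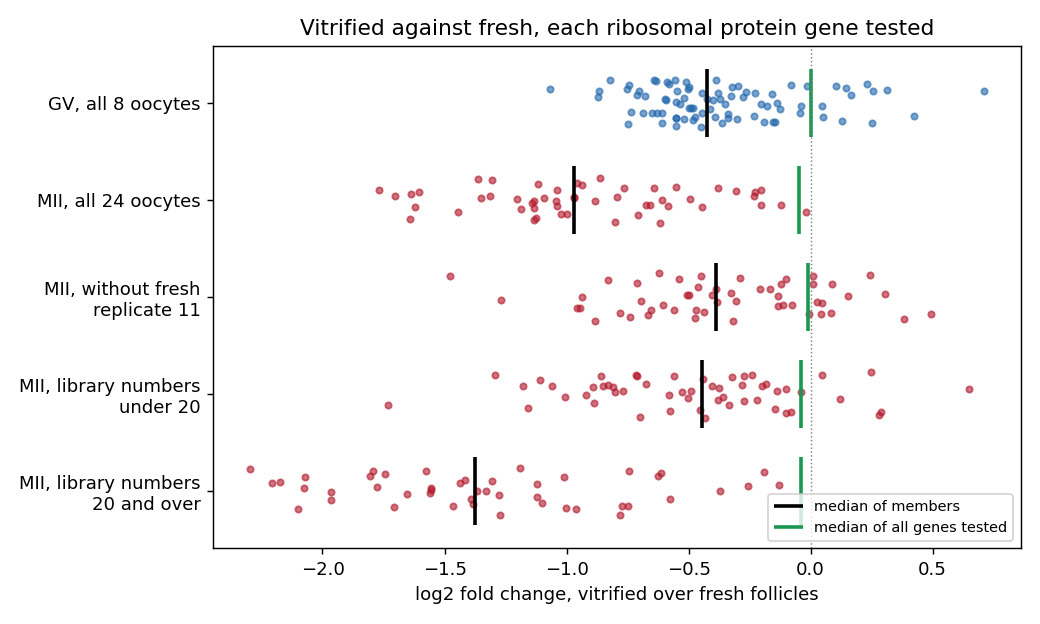
Log2 fold change of vitrified over fresh follicles for each gene of the family that was tested, in GV oocytes, in all MII oocytes and in MII oocytes under 3 restrictions; black and green bars are the medians of the family and of all genes tested, and vertical scatter is for display. The median of the family runs from −1.38 to −0.39 over the MII rows, and in no row did a gene pass the adjusted threshold.

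In MII oocytes 52 of the 85 genes were counted deeply enough to test, and none passed with edgeR (0 of 8428 genes tested, 0.0%) or limma-voom, while DESeq2 called 1 lower, Rplp1, where it called 0.273% of all genes lower (23 of 8428). Since a gene could reach the test through the group where it was higher, the 52 do not stand for the family. Without the filter on low counts 84 of 85 estimates were below 0, with a median of −1.10, beside −0.12 over all genes, and none passed. Among the 52, 18 were lower at an unadjusted p under 0.05 and none higher, where 6.56% of all genes were lower. That number was 7 without fresh MII replicate 11, with 40 of 52 estimates below 0, and 33 without vitrified MII replicate 12. It was 29 of 54 genes tested without fresh replicate 8, 3 with limma-voom and 4 with the replicate number as a block. The summed level ran from 534 to 1597 CPM in vitrified and from 521 to 5419 CPM in fresh MII oocytes, so the ranges overlapped almost wholly below 1597 CPM. The median of the 52 was −0.97 with all oocytes, beside −0.05 over all genes.

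That value rested in large part on fresh MII replicate 11, which held the highest value among fresh MII oocytes for 72 of the 85 genes. Without it the median was −0.39, and without it and vitrified replicate 12, the other MII oocyte over 3 times the median cumulus marker sum (620 CPM, 5.56 times), it was −0.50. The median was −0.45 among MII oocytes with library numbers under 20 and −1.38 among those of 20 and over, the set that holds both of these oocytes. With the replicate number as a block it was −0.45. Across the 24 MII oocytes the family's sum rose with the cumulus marker sum (Spearman's rho 0.49) and with the sum of the mitochondrial ribosomal proteins (0.76), descriptions that mix both treatments and share library size. In most of these oocytes the marker sum is largely Cyp19a1, so the first relation is not a measure of cumulus RNA.

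**Figure D5:**
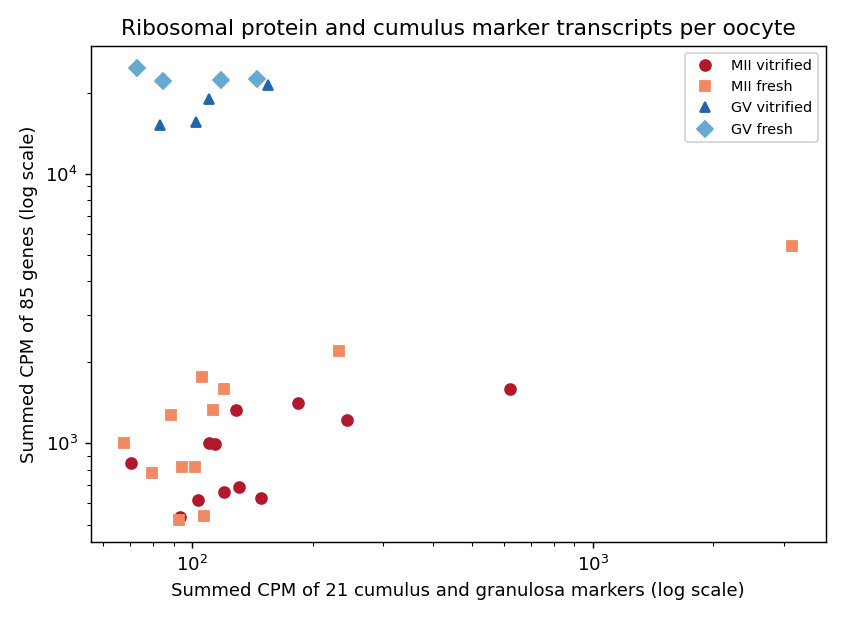
Summed CPM of the 85 genes against the summed CPM of 21 cumulus and granulosa markers in each oocyte (both axes log), by group. The GV oocytes lie at the top at 72.9 to 155 CPM of markers, and fresh MII replicate 11 lies alone at 3143 CPM of markers and 5419 CPM of ribosomal protein transcripts.

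Rplp1, of the stalk, had the smallest p in MII oocytes. It had 2.09 CPM at the lowest, 3.57 at the median and 7.96 at the highest in vitrified and 1.34, 11.9 and 26.5 CPM in fresh MII oocytes. The vitrified oocytes fell within the range of the fresh ones, with a lower median. The log2 fold change was −1.62 ± 0.41 (SE, unadjusted p = 0.000435). Rpl27 (−1.21 ± 0.36, unadjusted p = 0.00251), Rpl10 (−1.04 ± 0.33, 0.00413), Rps4l (−1.19 ± 0.41, 0.00681), Rpl11 (−0.996 ± 0.35, 0.00806) and Rps13 (−1.36 ± 0.50, 0.0114) followed, with SE. The lowest estimates belonged to Rpsa (−1.77), Rpl18 (−1.70), Rps6 (−1.64) and Rps4x (−1.64). For Rps6 the estimate was 0.24 without fresh replicate 11. Rps27l, the most abundant member in MII oocytes, differed least (−0.02 ± 0.22, SE), with medians of 201 CPM in vitrified and 222 CPM in fresh MII oocytes.

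Did the MII-to-GV difference itself depend on vitrification? The interaction, the MII minus GV difference in vitrified follicles minus that in fresh follicles, passed for none of the 85 genes with edgeR (0 of 11470 genes tested, 0.0%), DESeq2 or limma-voom, and at an unadjusted p under 0.05 for 1 of 85, where 4.07% of all genes reached it. That gene was Rpl21 (−3.71 ± 1.12, SE, unadjusted p = 0.00303), which was at 0 in all vitrified MII oocytes, so its estimate depends on the fit's prior count. The median over the family was −0.61, beside −0.13 over all genes, and 0.18 without fresh MII replicate 11. It was 0.00 with MII library numbers under 20 and −1.31 with those of 20 and over.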

How the data were processed

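The members and lists were chosen with earlier results of these data known. Per the submitters' processing notes, HISAT2, featureCounts and mm10 were used without versions, and no source used here names the annotation or the strand setting. The deposited table held 13202 rows, and 27 exact repeats were removed. Values of GV oocytes are raw counts as the authors deposited them. Those of MII oocytes are partly fractional and were taken as estimated counts, as deposited by the authors, and rounded to whole numbers; how the authors made the fractions is not stated.

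CPM are counts over 1e+06 of TMM-scaled library size. Comparisons used edgeR 4.0.16 (TMM, filterByExpr with a minimum count of 10, quasi-likelihood F test, Benjamini-Hochberg over all genes tested, threshold 0.05), after a check on simulated data. Vitrified and fresh were compared within a stage; stages and the interaction were contrasts of the 4 group means in a joint fit of 32 oocytes. SE is the absolute log2 fold change over the root of F. DESeq2 1.42.0, limma-voom 3.58.1, other scalings, filters and subsets were alternatives. Lengths are GENCODE M21 principal transcripts. Genes were named by rank of p and fold change per comparison, by GV level, as paralog pairs and from a list of members with known roles. Promoter windows are RefSeq's. Some genes are counted in the totals and not reported by name here.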

Additional observations from a re-analysis of the deposited data

Results flagged for a closer look

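In groups of 4, a value was singled out where its gap to the next oocyte passed Dixon's 95% critical share of the group's range. In all, 94 sets of 4 GV oocytes were examined and 9 were singled out. Chance gives about 1 in 20 for separate sets not picked by their values. Many of these genes were named by levels or fold changes of the same GV oocytes, which the sets share, so that rate cannot serve as a yardstick here. In vitrified GV oocytes, replicate 1 stood above the others in Rpl26 at 124.3 CPM and in Rpl30 at 126.3 CPM and below them in Rps27 at 21.38 CPM, and replicate 3 stood above them in Rpl39 at 30.76 CPM. In fresh GV oocytes, replicate 3 stood above the others in the summed CPM of the 85 genes at 24620 CPM and in Rpl35 at 1043 CPM. Replicate 1 stood above them in Rpl26 at 212.3 CPM. Replicate 4 stood above them in Rps2 at 57.81 CPM and below them in Rps21 at 108.9 CPM. As a share of all counts, without TMM scaling, fresh GV replicate 3 was the lowest of the 4, with 2.58% in the 85 genes against 2.85% to 3.14%. Its place at the top of the summed CPM thus depends on the scaling.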

How the results depend on the processing

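Between stages, 66 to 85 genes were lower in fresh and 79 to 85 in vitrified MII oocytes over all alternatives run, and none was higher. The fewest came with MII library numbers of 20 and over, where 83 of 85 estimates were below 0 in fresh follicles and Rpsa, Rpl7, Rpl39, Rps6, Rps3 and others no longer passed there. With limma-voom the fresh median was −5.55 (main −4.61); the cause was not tested. Library size alone moved the median of all genes to −0.81 in vitrified and −0.61 in fresh follicles (main −0.35 and −0.23) and the split of calls to 1945 higher and 4703 lower, and 1992 and 4142 (main 2678 and 3861, 2615 and 3413). DESeq2 called 1 gene of the family, Rplp1, lower in vitrified than in fresh MII oocytes, among 23 lower and 13 higher over all 8428 genes. Leaving out 1 oocyte gave 74 to 83 genes (medians −5.44 to −4.45) in fresh and 81 to 84 (−5.32 to −4.85) in vitrified follicles for stage, 0 genes for treatment in GV (−0.59 to −0.31) and MII oocytes (−1.13 to −0.39), and 0 for the interaction (−0.85 to 0.18).

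Of the genes named, 14 estimates changed sign under some alternative; none of these had passed. Most lay within 1 of 0, but Rps6 (−1.64, vitrified against fresh MII), Rpl3 (−2.10) and Rps9 (−1.73, both interaction) did not. For vitrified against fresh in MII oocytes, Rps27l was 0.048 with library numbers under 20 and 0.009 with the high-cumulus oocytes left out, an alternative chosen after seeing the data. Rpl7a was 0.14 (limma-voom), 0.24 (replicate block), 0.29 (under 20) and 0.36 (high-cumulus), and Rplp0 0.010, 0.040, 0.12 and 0.017 in that order. Rps6 was 0.070 with the block. Leaving out 1 oocyte gave −0.12 to 0.084 for Rps27l, −0.34 to 0.38 for Rpl7a, −0.28 to 0.086 for Rplp0, −0.27 to 0.025 for Rpl13a and −2.13 to 0.24 for Rps6. In GV oocytes it gave −0.32 to 1.01 for Rpl39 and −0.26 to 0.61 for Rpl15. For stage in fresh follicles, Rpl13 was 0.10 and Rpl9 0.20 with numbers of 20 and over, and Rps2 −1.51 to 0.049 with 1 oocyte left out. For the interaction, Rps27rt was −0.26 and Rpl10l −1.38 with numbers of 20 and over, and Rpl3 0.67 with limma-voom. With 1 oocyte left out Rpl10l ran from −0.23 to 0.84, Rpl3 from −2.97 to 0.47 and Rps9 from −2.31 to 0.44.

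Replicate numbers were taken as labels only: same-numbered oocytes correlated in their deviations at −0.55 to 0.37 (4 GV pairs) and −0.47 to 0.44 (12 MII pairs), and 1 of 4 and 4 of 12 vitrified oocytes correlated best with their own number. The replicate block gave 0 calls for treatment in GV (median −0.49) and MII (−0.45), 83 and 83 genes lower for stage in vitrified and fresh follicles (−5.23, −5.07) and 0 for the interaction (−0.09). Depth limits MII values: 35 of 85 genes had a median MII count under 10.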
